A study of Mus musculus with 4 samples.

Results

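The genes described here were those of the endoplasmic reticulum (ER) stress response and the integrated stress response in the mouse liver after an overdose of acetaminophen (APAP). The 37 genes were chosen by symbol from the pathway, as ER chaperones and folding factors (14 genes), components of ER-associated degradation (7 genes), stress sensors and transcription factors (7 genes) and targets of the integrated stress response (9 genes). All 37 were found among the 27027 entries of the count table, and 35 of them, with 12113 entries in all, had a mean of at least 10 normalized reads over the libraries. That mean takes in the APAP libraries, so a gene with few reads in both controls could pass through its reads after APAP. Phgdh and Vldlr did not reach that level.

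RNA 3′ ends were counted by massive analysis of cDNA ends (MACE) in 4 libraries, each made from 1 pool of liver RNA from male C57BL/6J mice (C57BL/6 in the sample labels) aged 9 to 12 weeks. The mice were fasted for 10 h and then injected intraperitoneally with 0.9% NaCl (control) or with APAP at 300 mg/kg, and livers were taken after 24 h or 48 h. Each control pool held RNA of 6 mice and each APAP pool RNA of 7 mice, at equal shares per mouse. The study asked which genes are expressed while the liver recovers between these time points, and each APAP pool was compared with the control pool of its own time point. With 1 library per group no test between conditions was run, the spread between mice is not known, and every interval below covers counting error only.

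The libraries held between 4859661 and 5698778 reads on genes, with 19637 to 20641 genes having a read. Levels are given as normalized reads, which are reads divided by the size factor of the library. A fold is the ratio of normalized reads with its 95% exact (Clopper-Pearson) interval from the 2 counts. Genes with a fold of at least 2 in either direction and an interval that left out 1 were counted as higher or lower. Reads of 3′ ends show the amount of each mRNA and show neither splicing of the Xbp1 mRNA nor phosphorylation of eIF2α. In RNA of whole liver, fewer cells of a type and less RNA per cell cannot be told apart.

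The ER folds secreted and membrane proteins, and hepatocytes, which secrete most plasma proteins, hold a large ER. When unfolded proteins accumulate, the membrane sensors IRE1 (gene Ern1), PERK (gene Eif2ak3) and ATF6 act through XBP1, through phosphorylation of eIF2α with translation of ATF4, and through the released part of ATF6, and the resulting transcription factors raise chaperones, degradation factors and genes of amino acid supply. Other kinases phosphorylate eIF2α upon amino acid shortage, heme deficiency or viral RNA, and the shared output is called the integrated stress response.

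The promoters are shown first because genes of this pathway are known by their shared DNA elements. The ER stress response element, CCAAT and CCACG with 9 bases between them, is known to bind NF-Y and ATF6. It was searched on both strands in RefSeq promoter windows (GRCm38.p6) that reach from 250 bases before to 50 bases after each transcript start. It was found in 0.119% of all 32851 windows, which belong to 37 of 27025 genes. Of the 33 stress response genes with a window, 9 (27.3%) held it. The other 4, Manf, Hyou1, Derl1 and Atf6, had no window. The lines below give the element on its own strand, 5′ to 3′, with up to 10 bases on either side, and with CCAAT and CCACG in capitals.
Hspa5: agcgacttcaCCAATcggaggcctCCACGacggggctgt
Hsp90b1, nearer element: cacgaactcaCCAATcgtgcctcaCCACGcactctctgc
Hsp90b1, farther element: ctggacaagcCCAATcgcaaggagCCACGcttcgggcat
Pdia6: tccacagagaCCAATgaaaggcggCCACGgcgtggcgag
Calr: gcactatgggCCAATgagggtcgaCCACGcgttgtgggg
Canx: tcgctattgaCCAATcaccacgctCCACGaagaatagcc
Dnajc3: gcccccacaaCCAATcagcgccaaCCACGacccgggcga
Creld2: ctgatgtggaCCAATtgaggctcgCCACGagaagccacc
Derl3: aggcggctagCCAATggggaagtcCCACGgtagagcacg
Syvn1: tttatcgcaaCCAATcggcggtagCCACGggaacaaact

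Of these 9 genes, 7 encode chaperones or folding factors and 2 encode components of ER-associated degradation. Places of elements are given against the RefSeq transcript start of the window, and gene coordinates below are those of GENCODE, whose genes can begin elsewhere. All 10 elements lay upstream of the RefSeq start, and 9 also lay outside the GENCODE gene, while that of Hspa5 overlapped it. The Hspa5 element (chr2:34772025-34772043, + strand) and the Syvn1 element (chr19:6046532-6046550, + strand) began 65 and 44 bases before the RefSeq start. In Calr (chr8:84847075-84847093, + strand), Creld2 (chr15:88819520-88819538, - strand) and Derl3 (chr10:75893242-75893260, - strand) the element ran on the strand opposite to the gene. Its outer end lay 162, 126 and 156 bases before the RefSeq start of Calr, Creld2 and Derl3. The core TGACGTGG, known as a binding site of XBP1 and ATF6, was found in none of the 33 genes. It was found in 0.714% of all genes and 0.676% of all windows.

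The ATF4 composite element was searched as TGATGNAAN, with any base at N, on both strands. It was found in 6 of the 33 genes (18.2%), beside 4.50% of all 27025 genes and 3.95% of all windows. The lines below show the element before the RefSeq start of 5 of these genes, with the fixed bases in capitals, while the match of Trib3 reached into its RefSeq transcript. By the GENCODE coordinates, the elements of Asns, Nupr1 and Vldlr overlapped the gene, and that of Trib3 lay upstream of it.
Herpud1: gggtgcgggcTGATGcAAcccgccgtggt
Asns: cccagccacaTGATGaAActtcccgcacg
Chac1: ctggcaggagTGATGcAAcggcagggaag
Nupr1: aagccctgtcTGATGcAAtctggcccttt
Vldlr: ctaggagcgcTGATGcAActattgctgct

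Of these 5 genes, 4 are targets of the integrated stress response and Herpud1 is a component of ER-associated degradation. The Asns element (chr6:7693224-7693232, - strand) began 23 bases before the RefSeq start. None of the 9 genes with the ER stress response element held this element, and a missing match says only that these letters are not in the window.

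**Figure D1:**
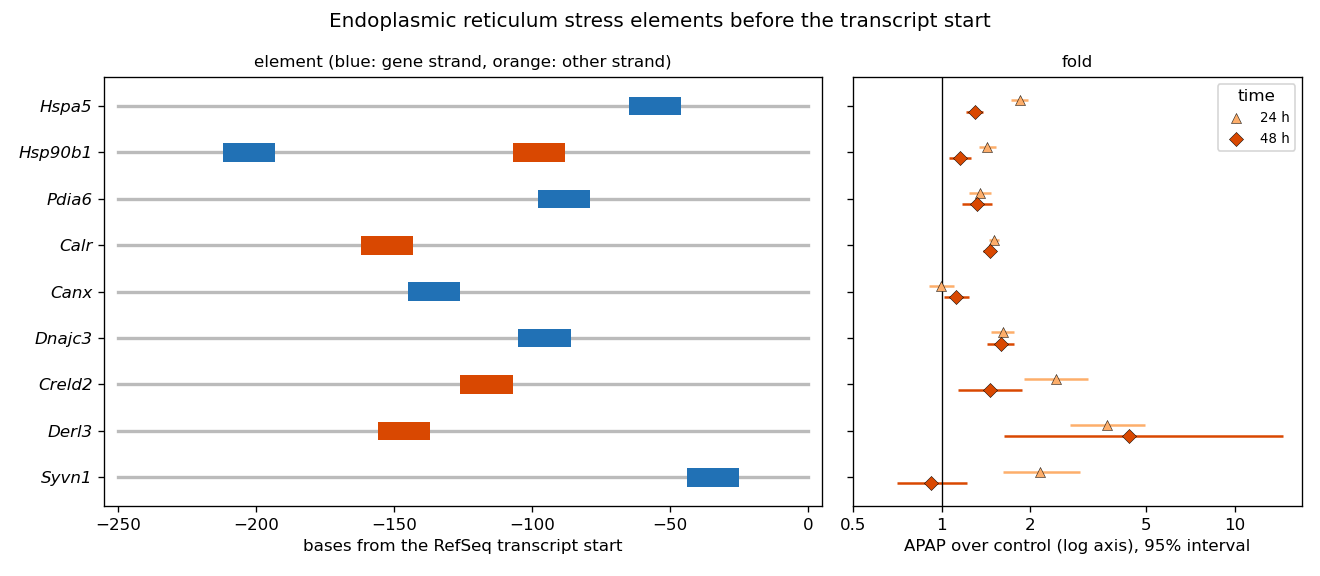
Left, place of each ER stress response element in bases from the RefSeq transcript start (0), in blue on the strand of the gene and in orange on the other strand. Right, fold of APAP over control on a log axis, with its 95% counting interval, at 24 h (triangles) and 48 h (diamonds). The fold at 24 h runs from 0.997 for Canx to 3.66 for Derl3.

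Among the 9 genes with the ER stress response element, the median fold was 1.62 at 24 h and 1.32 at 48 h, and 3 and 1 of them were counted as higher. Among the 22 stress response genes that passed the filter and had a window without it, the median fold was also 1.62 at 24 h and was 1.13 at 48 h. In the 5 genes past the filter with the ATF4 composite element (Herpud1, Trib3, Asns, Chac1 and Nupr1) the median fold was 1.87 at 24 h and 1.91 at 48 h. Of these 5, Chac1 and Nupr1 passed the filter only through their reads after APAP, so this median is not independent of the filter. The 26 stress response genes past the filter with a window without the ATF4 composite element had median folds of 1.47 and 1.14. The 226 other genes past the filter that held it had median folds of 0.945 and 0.972.

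At 24 h after APAP, 11 of the 35 stress response genes (31.4%) were counted as higher than in the control and none as lower. Over all 12113 genes past the filter, 4.89% were counted as higher and 4.99% as lower. The 11 were the folding factors Sdf2l1 and Creld2, the degradation factors Derl3 and Syvn1, the sensor gene Eif2ak3, the transcription factor gene Ddit3, and the target genes Chac1, Ppp1r15a, Psat1, Slc3a2 and Nupr1. Among them, Chac1 and Nupr1 passed the filter only through their reads after APAP. Without the filter the same 11 were counted as higher, beside 2.89% of all entries. At 48 h, 3 of 35 (8.57%) were counted as higher, namely Derl3, Asns and Psat1, and none as lower, against 4.79% and 4.99% of all genes. Derl3 and Psat1 were counted as higher at both time points, which held for 1.75% of all genes, while no stress response gene and 2.15% of all genes were lower at both.

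The median log2 fold of the 35 genes was 0.59 at 24 h and 0.29 at 48 h, beside 0.01 and -0.02 over all genes. At 24 h the interval lay above 1 for 25 of them and below 1 for 1, beside 15.4% and 18.3% of all genes. At 48 h it lay above 1 for 17 and below 1 for 5, beside 13.9% and 18.9% of all genes. Scaling by library totals in place of size factors moved the median of all genes by 0.19 at 24 h and 0.27 at 48 h on the log2 scale. It changed the share of higher genes among all called genes from 49.5% to 71.6% at 24 h and from 49.0% to 76.3% at 48 h. With that scaling 16 stress response genes were counted as higher at 24 h, against 7.86% of all genes, and 7 at 48 h, against 9.01%. With size factors, the median of the 35 genes was 0.96 (24 h) and -0.02 (48 h) against the control of the other time point. Against the summed controls it was 0.75 and 0.12.

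**Figure D2:**
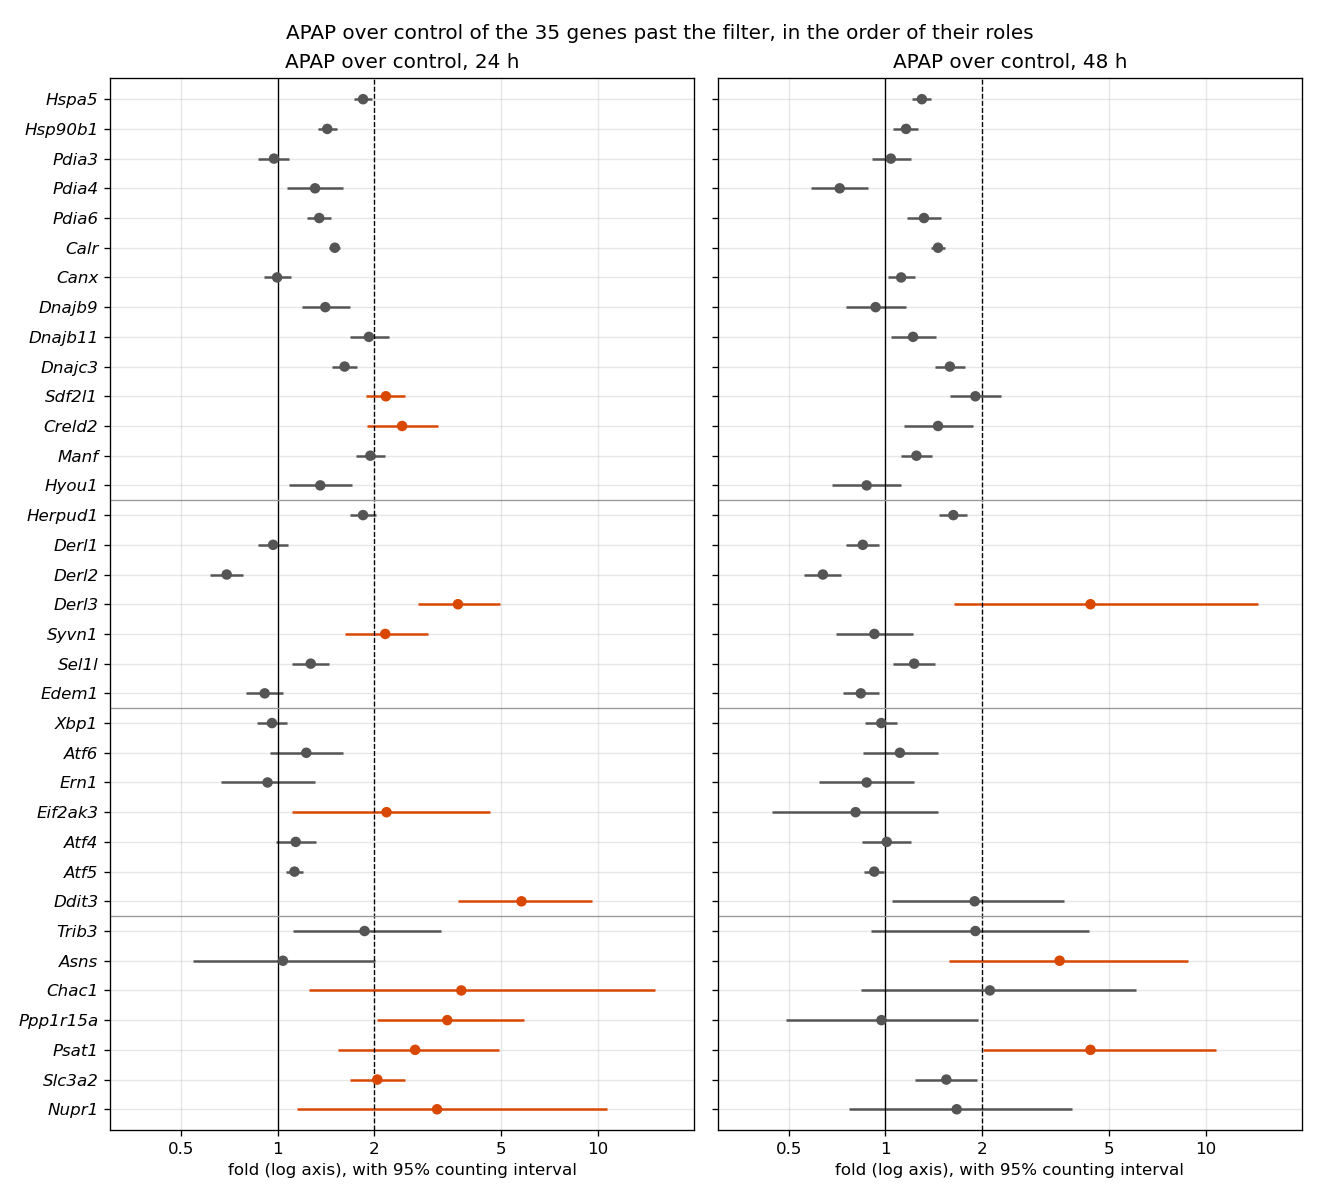
Fold of APAP over control (log axis) with its 95% counting interval for the 35 genes past the filter, at 24 h (left) and 48 h (right), with grey lines between the role groups. The solid line marks 1, the dashed line 2, and orange marks the 11 genes at 24 h and the 3 genes at 48 h that were counted as higher.

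The ER chaperones were higher in sum than in the control of the same time point, by moderate folds. Their summed normalized reads were 12553 in the 24 h control and 19078 at 24 h after APAP, and 8982 in the 48 h control and 11682 at 48 h after APAP. The sum at 48 h after APAP thus lay below that of the 24 h control. The interval of the fold lay above 1 for 12 of the 14 genes at 24 h and for 10 at 48 h, yet 2 passed the threshold of 2 at 24 h and none at 48 h. The median fold was 1.47 at 24 h and 1.24 at 48 h.

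Hspa5 (chr2:34771970-34777547, + strand) encodes BiP, the main ER chaperone of the HSP70 family and a repressor of the stress sensors. It had 1446 normalized reads in the 24 h control and 2670 after APAP, a fold of 1.85 (1.73 to 1.97), and 1375 against 1781 at 48 h, a fold of 1.30 (1.21 to 1.39). The 48 h APAP library thus lay between its own control and the 24 h APAP library. Sdf2l1, a partner of BiP, had 306 and 666 normalized reads at 24 h and 184 and 352 at 48 h, in control and APAP. Its folds were 2.18 (1.89 to 2.51) and 1.91 (1.59 to 2.30), so that both lay near the threshold of 2 and only the first was counted. Against the 24 h control, the 48 h APAP library had a Sdf2l1 fold of 1.15 (0.980 to 1.35), with an interval that held 1. Creld2, an ER resident protein of the stress response, had 95.5 and 234 normalized reads at 24 h, a fold of 2.45 (1.91 to 3.17), and 110 and 161 at 48 h, a fold of 1.46 (1.14 to 1.88). Manf, a secreted and ER resident survival factor, lay just below the threshold at 24 h, with 571 and 1113 normalized reads and a fold of 1.95 (1.76 to 2.17).

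Dnajb11, a co-chaperone of BiP, lay just below the threshold too, with 317 and 613 normalized reads at 24 h and a fold of 1.93 (1.68 to 2.23), and had a fold of 1.22 (1.04 to 1.44) at 48 h. Dnajc3, a co-chaperone that also inhibits eIF2α kinases, had 826 and 1336 normalized reads at 24 h and 564 and 895 at 48 h. Its folds of 1.62 (1.48 to 1.77) and 1.59 (1.43 to 1.77) differed by less than the counting error. Against the 24 h control, the 48 h APAP library had a Dnajc3 fold of 1.08 (0.983 to 1.19). Dnajb9, a co-chaperone that holds IRE1 inactive, had 230 and 325 normalized reads at 24 h, a fold of 1.41 (1.19 to 1.68), and 180 and 168 at 48 h, a fold of 0.932 (0.751 to 1.16). Hyou1, a large chaperone that exchanges the nucleotide of BiP, followed the same order, with folds of 1.36 (1.09 to 1.71) and 0.874 (0.680 to 1.12).

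The lectin chaperones of glycoproteins differed from each other. Calr (calreticulin, chr8:84841850-84846934, - strand) had 4495 and 6777 normalized reads at 24 h and 2630 and 3833 at 48 h, with folds of 1.51 (1.45 to 1.57) and 1.46 (1.39 to 1.53). Canx (calnexin), its membrane-bound relative, stayed between 770 and 864 normalized reads in the 4 libraries, with folds of 0.997 (0.906 to 1.10) and 1.12 (1.02 to 1.24). Pdia3, the disulfide isomerase that works with both, had 630 and 614 normalized reads at 24 h and 419 and 437 at 48 h, and its intervals held 1 at both times. The isomerase Pdia6 had 964 and 1305 normalized reads at 24 h and 499 and 658 at 48 h, with folds of 1.35 (1.24 to 1.47) and 1.32 (1.17 to 1.49). Pdia4, another isomerase, turned its direction, from 181 to 237 normalized reads at 24 h, a fold of 1.31 (1.07 to 1.60), and from 231 to 166 at 48 h, a fold of 0.720 (0.587 to 0.882). With the control of the other time point both intervals held 1, at 1.03 (0.857 to 1.23) and 0.918 (0.737 to 1.14). Hsp90b1 (GRP94), the HSP90 of the ER, had 1492 and 2137 normalized reads at 24 h and 1057 and 1222 at 48 h.

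The control pools differed as well. Of the 14 chaperone genes, 8 were below 1 with their interval in the 48 h control over the 24 h control, and 1, Pdia4, was above. Calr had 0.585 (0.556 to 0.615) and Pdia6 0.517 (0.461 to 0.580) of its 24 h level in the 48 h control. Set against the 24 h control instead, the 48 h APAP library gave folds below 1 for Calr, at 0.853 (0.816 to 0.891), for Pdia6, at 0.683 (0.617 to 0.755), and for Hsp90b1, at 0.819 (0.758 to 0.885). The intervals of Pdia3 and Dnajb9 also lay below 1 in that comparison. Hspa5 kept a fold of 1.23 (1.15 to 1.32), Creld2 of 1.69 (1.29 to 2.22) and Manf of 1.21 (1.08 to 1.36). For Sdf2l1, Dnajc3, Dnajb11, Pdia4, Canx and Hyou1 the interval held 1.

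**Figure D3:**
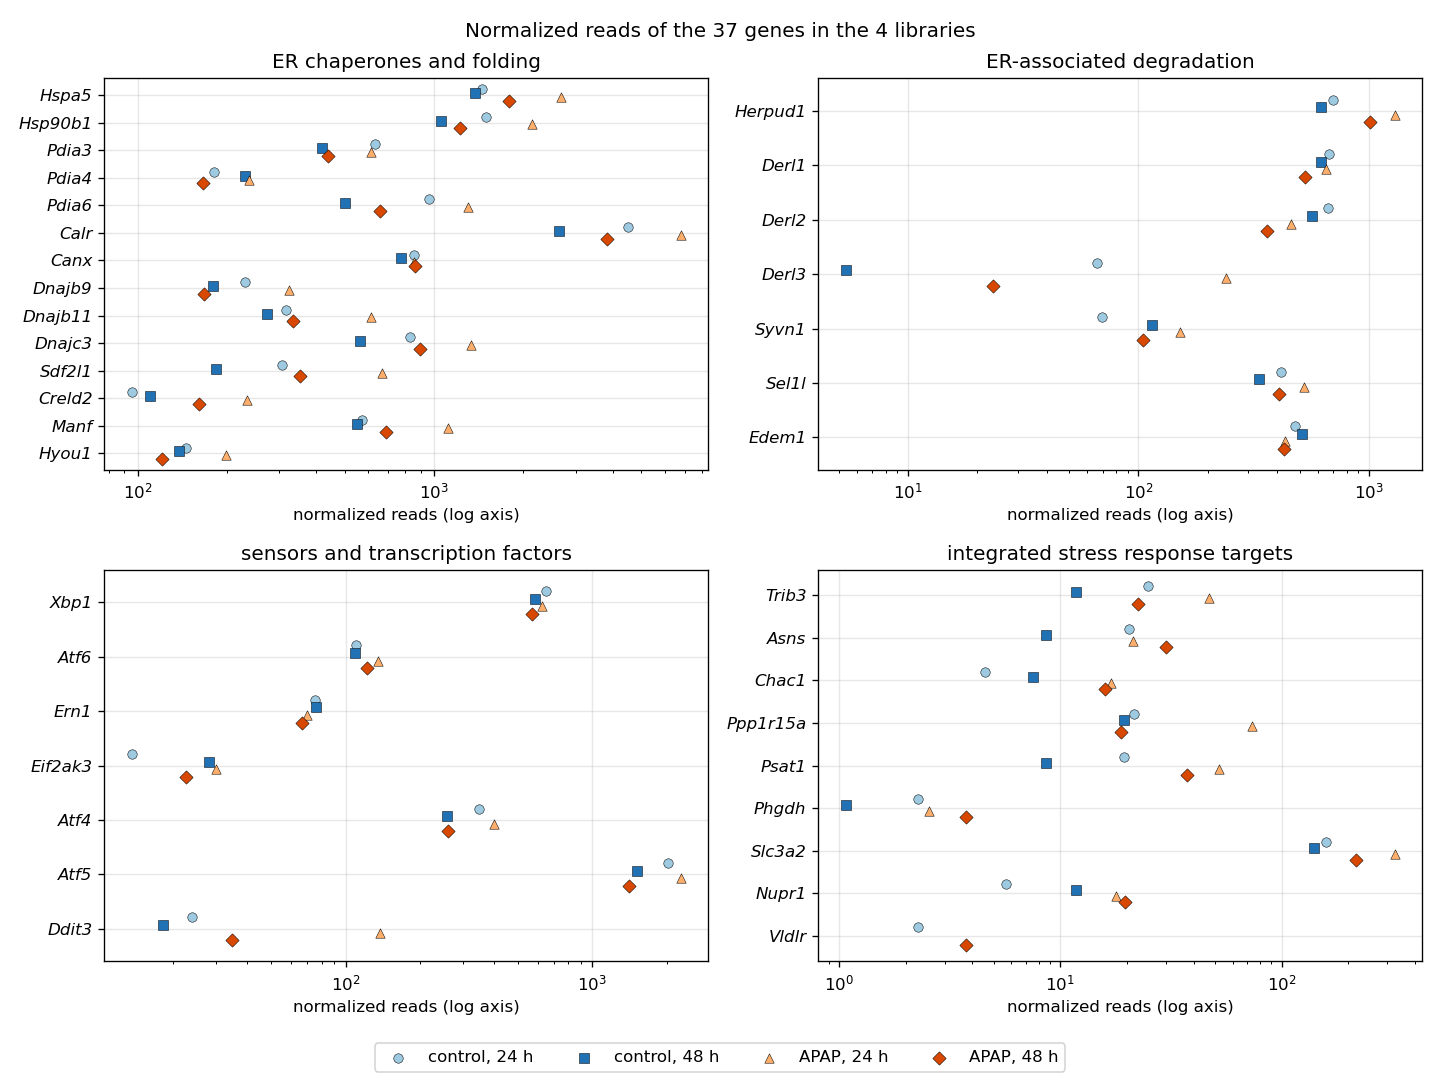
Normalized reads (log axis) of the 37 genes in the 4 libraries, in 4 panels by role, with circles and squares for the 24 h and 48 h controls and triangles and diamonds for APAP at 24 h and 48 h. Derl3 spans from 5.36 to 241, while Xbp1, Ern1 and Canx lie close together in all libraries. Vldlr had no read in the 48 h control and at 24 h after APAP, and those points are not drawn.

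Components of ER-associated degradation, which returns misfolded proteins to the cytosol for destruction, did not move as one. Of the 7 genes, 2 were counted as higher at 24 h and 1 at 48 h, with a median fold of 1.27 and 0.924. Derl3 (chr10:75893413-75895941, + strand), a derlin of the retrotranslocation machinery that is largely restricted to secretory cells, had 65.9 normalized reads in the 24 h control and 241 after APAP. In the 48 h pair it had 5.36 in the control and 23.4 after APAP, which were 5 and 25 reads. The fold was 3.66 (2.75 to 4.94) at 24 h, and at 48 h it was 4.37 (1.64 to 14.6). In the 48 h control the gene had 0.0813 (0.0254 to 0.201) of its level in the 24 h control, so the spread between the control pools was larger than either fold. Against the 24 h control the 48 h APAP library was lower, at 0.355 (0.213 to 0.577), and against the sum of both controls its fold was 0.674 (0.406 to 1.09). The 24 h fold was 45.0 (19.0 to 140) against the 48 h control, which held 5 reads, and 6.93 (5.26 to 9.26) against the summed controls.

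Its relatives went another way. Derl2 had 662 and 459 normalized reads at 24 h and 567 and 362 at 48 h, with folds of 0.694 (0.616 to 0.781) and 0.638 (0.558 to 0.729), and it was the only gene of the 35 with intervals below 1 at both times. Derl1 had folds of 0.969 (0.869 to 1.08) and 0.850 (0.756 to 0.957). Against the derlin that was counted as higher, the other two thus lay near or below 1.

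Herpud1 (chr8:94386438-94395377, + strand), which gathers the degradation complex, had 699 and 1292 normalized reads at 24 h and 622 and 1012 at 48 h. The folds were 1.85 (1.68 to 2.03) and 1.63 (1.47 to 1.80), and both APAP libraries lay above both controls. Syvn1 (chr19:6046576-6053712, + strand) encodes HRD1, the ubiquitin ligase of that complex. It had 69.3 and 151 normalized reads at 24 h, a fold of 2.17 (1.62 to 2.96), and 114 and 105 at 48 h, a fold of 0.924 (0.702 to 1.22). The 48 h control was itself above the 24 h control by 1.64 (1.19 to 2.28), and against the 48 h control the 24 h APAP library had a fold of 1.33 (1.04 to 1.70). Sel1l, the adaptor of HRD1, had folds of 1.27 (1.11 to 1.45) and 1.23 (1.06 to 1.43). Edem1, a lectin that marks glycoproteins for degradation, had folds of 0.912 (0.800 to 1.04) and 0.838 (0.736 to 0.954).

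Among the sensors and transcription factors, Xbp1, Atf6, Ern1 and Atf4 were near the level in the control of the same time point. Eif2ak3 was counted as higher at 24 h. Ddit3 had the largest fold of all 35 genes at 24 h with the 24 h control. Derl3 had the largest with the other or the summed control. Xbp1 (chr11:5520659-5525893, + strand), the transcription factor made active by IRE1, had 651 and 626 normalized reads at 24 h and 585 and 568 at 48 h. Atf6, the membrane-bound factor, had 110 and 135 at 24 h and 109 and 122 at 48 h. Ern1 had 75.0 and 69.8 at 24 h and 76.1 and 66.6 at 48 h. The intervals of all 3 genes held 1 at both times.

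Atf4, the main transcription factor of the integrated stress response and itself controlled by translation, had 349 and 399 normalized reads at 24 h and 258 and 261 at 48 h, with folds of 1.14 (0.987 to 1.32) and 1.01 (0.846 to 1.20). Atf5, a related factor with high expression in liver, had 2018 and 2280 normalized reads at 24 h and 1521 and 1404 at 48 h. Its narrow intervals lay on opposite sides of 1, at 1.13 (1.06 to 1.20) and 0.923 (0.857 to 0.993). Both genes were lower in the 48 h control than in the 24 h control, at 0.740 (0.623 to 0.879) for Atf4 and 0.754 (0.703 to 0.809) for Atf5. With the control of the other time point the Atf4 intervals left out 1, at 1.54 (1.32 to 1.81) for 24 h and 0.747 (0.633 to 0.881) for 48 h.

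Ddit3 (chr10:127290774-127296288, + strand) encodes CHOP, the transcription factor linked to cell death under lasting ER stress. It had 23.9 normalized reads in the 24 h control and 138 after APAP, and 18.2 and 34.7 at 48 h. The folds were 5.78 (3.66 to 9.59) and 1.90 (1.05 to 3.60), and both APAP libraries lay above both controls. Against the 24 h control, however, the 48 h APAP library had a fold of 1.45 (0.829 to 2.61), with an interval that held 1. Eif2ak3 (chr6:70844515-70905245, + strand), the gene of PERK, had 12 and 35 reads at 24 h, which gave a fold of 2.19 (1.11 to 4.62), and 26 and 24 reads at 48 h, which gave 0.807 (0.444 to 1.46). A further 7 and 8 reads at 24 h stood in an entry that names Eif2ak3 or a small nucleolar RNA gene, a kind of entry that the sources used here do not explain. With these reads added the fold was 1.70 (0.967 to 3.08) and no longer counted. Its 48 h control lay close to the 24 h APAP library, with 27.9 and 29.8 normalized reads.

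The targets of the integrated stress response had the largest median fold of the 4 role groups, 2.69 at 24 h and 1.91 at 48 h, over the 7 of 9 genes past the filter. At 24 h 5 of these were counted as higher, and at 48 h 2. Most of these genes had few reads, which makes the intervals wide. Chac1 and Nupr1 passed the filter only through their reads after APAP, so this median and these counts are not independent of the filter. In the 24 h and 48 h controls Chac1 had 4.55 and 7.51 normalized reads, and 17.0 and 15.9 after APAP. Nupr1 had 5.68 and 11.8 in the controls, and 17.9 and 19.7 after APAP. The summed normalized reads of the 9 genes were 259 and 554 in control and APAP at 24 h, and 209 and 369 at 48 h.

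Ppp1r15a (chr7:45522916-45526268, - strand) encodes GADD34, the phosphatase subunit that removes the phosphate from eIF2α and so ends the response. It had 21.6 and 73.2 normalized reads at 24 h, a fold of 3.39 (2.05 to 5.90), and 19.3 and 18.8 at 48 h, a fold of 0.972 (0.488 to 1.95). The 24 h APAP library alone stood apart, since the other 3 libraries lay between 18.8 and 21.6. Trib3, a pseudokinase that restrains ATF4 and CHOP, had 25.0 and 46.8 normalized reads at 24 h, a fold of 1.87 (1.12 to 3.23), and 11.8 and 22.5 at 48 h, a fold of 1.91 (0.900 to 4.31). With the control of the other time point the Trib3 folds were 3.97 (2.06 to 8.42) and 0.900 (0.483 to 1.68). Chac1, an enzyme that degrades glutathione, had 4 and 20 reads at 24 h, a fold of 3.75 (1.25 to 15.1), and 7 and 17 reads at 48 h, a fold of 2.12 (0.837 to 6.06). Nupr1, a small stress-induced chromatin protein, had 5 and 21 reads at 24 h and 11 and 21 reads at 48 h, with folds of 3.15 (1.15 to 10.7) and 1.67 (0.769 to 3.83). In both Chac1 and Nupr1 the APAP libraries were nearly equal, and the ratio of the 48 h to the 24 h control was 1.65 (0.420 to 7.69) for Chac1 and 2.07 (0.665 to 7.62) for Nupr1, so that a difference between the controls was not detectable at this depth.

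A further 3 of the targets act in amino acid supply. Psat1 (chr19:15904678-15947337, - strand), an enzyme of serine synthesis, had 19.3 and 52.0 normalized reads at 24 h, a fold of 2.69 (1.55 to 4.91), and 8.58 and 37.5 at 48 h, a fold of 4.37 (2.02 to 10.8). The 48 h fold rests on 8 reads in the control and 40 after APAP. Both APAP libraries lay above both controls. Asns (chr6:7675169-7693254, - strand), asparagine synthetase, had 18 and 25 reads at 24 h and 8 and 32 reads at 48 h, with folds of 1.04 (0.545 to 2.02) and 3.50 (1.58 to 8.79). Slc3a2 (chr19:8706882-8723369, - strand), the shared heavy chain of several amino acid transporters, had 158 and 324 normalized reads at 24 h and 140 and 218 at 48 h. Its folds were 2.05 (1.68 to 2.51) and 1.55 (1.24 to 1.93).

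Phgdh, the first enzyme of serine synthesis, had 2 and 3 reads at 24 h and 1 and 4 reads at 48 h, with a ratio of 3.50 (0.346 to 172) at 48 h. Its last 300 bases matched several annotated copies at 95% identity or more, so its few reads could also have been placed elsewhere. Vldlr, a lipoprotein receptor, had 2 reads in the 24 h control and 4 reads at 48 h after APAP, and none in the other libraries. At this depth no difference was detectable for either gene.

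The folds at both time points were set against each other by the ratio of the 48 h fold to the 24 h fold, with its exact conditional interval. For 13 of the 35 genes the ratio lay below 1 with its interval, for 1 gene it lay above, and for 21 the interval held 1. The share over all genes was not computed for this ratio, which also carries any difference between the control pools. Among the 13 were 8 chaperone genes, with Hspa5 at 0.702 (0.636 to 0.773), Manf at 0.642 (0.549 to 0.750) and Creld2 at 0.595 (0.415 to 0.854). The lowest ratios were those of Ppp1r15a, at 0.287 (0.119 to 0.698), and Ddit3, at 0.329 (0.149 to 0.739). Asns was the gene above 1, at 3.36 (1.15 to 10.4). Calr, Pdia6, Dnajc3 and Herpud1 had intervals that held 1, and so did Derl3, at 1.20 (0.425 to 4.17), and Psat1, at 1.63 (0.595 to 4.77).

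**Figure D4:**
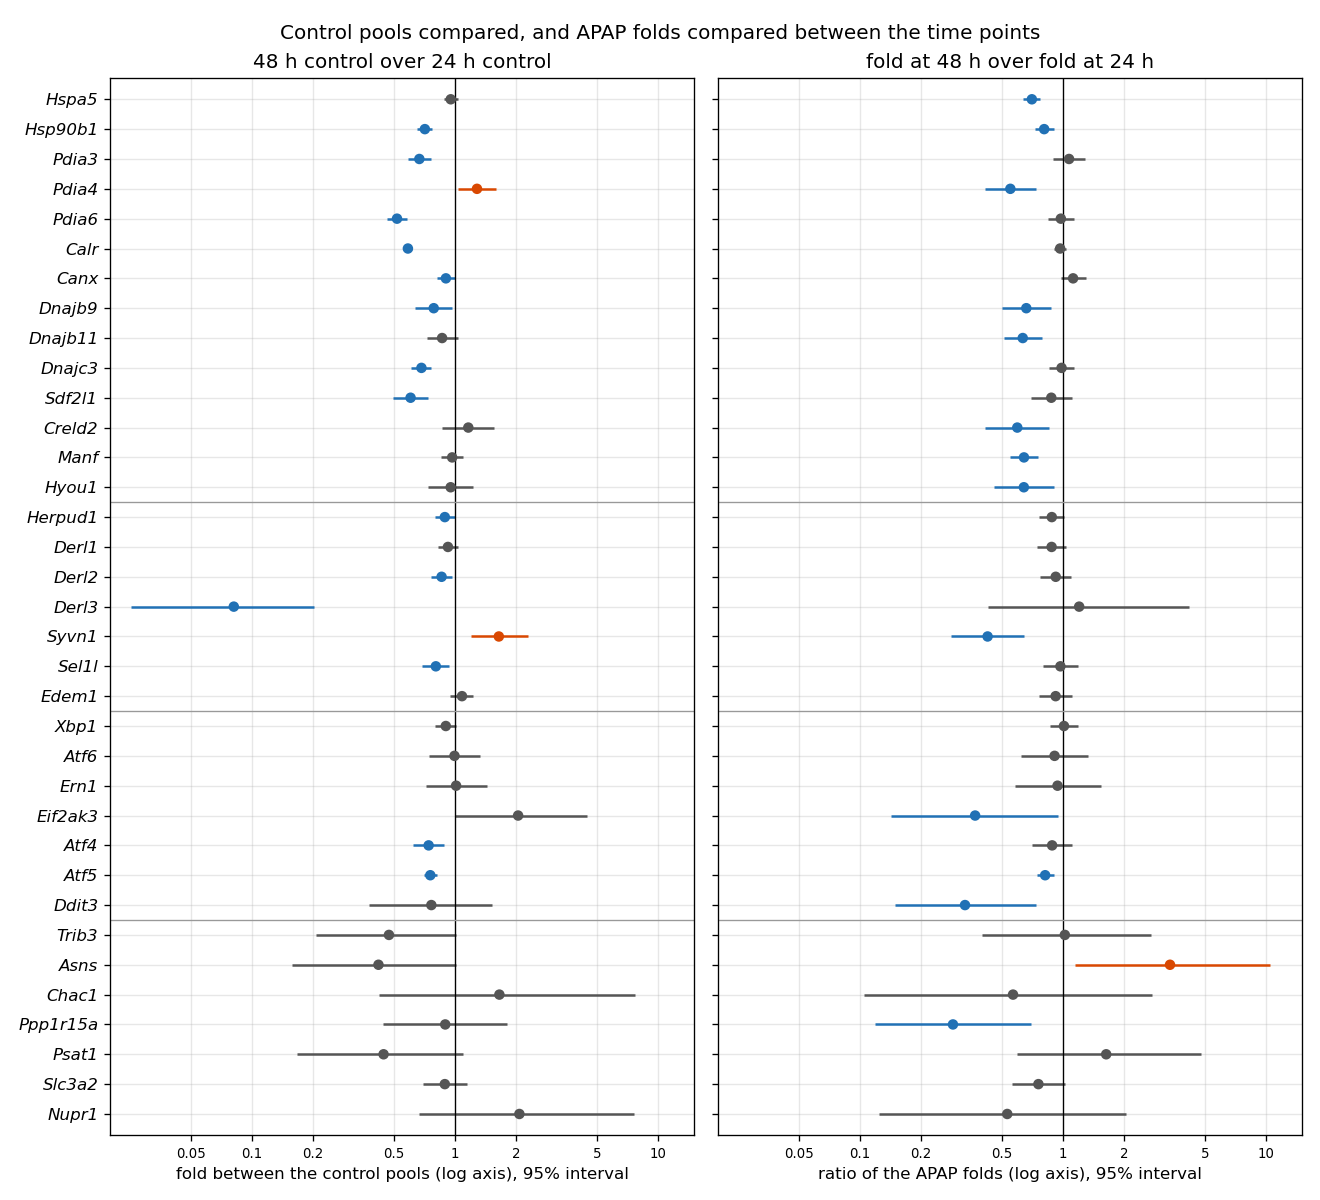
Left, fold of the 48 h control over the 24 h control, and right, ratio of the APAP fold at 48 h to that at 24 h, both on a log axis with 95% intervals, for the 35 genes past the filter. Blue marks intervals below 1 and orange intervals above 1, with Derl3 lowest at left (0.0813) and Asns the only orange gene at right (3.36).

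Between the control pools, 1 stress response gene, Derl3, was counted as lower at 48 h and none as higher, against 1.44% and 1.77% of all genes. Smaller differences were common, and the interval lay below 1 for 14 of the 35 genes and above 1 for Pdia4 and Syvn1, with a median log2 fold of -0.17. Over all genes these shares were 8.16% and 10.7%. The choice of control therefore decided some counts. Against the 48 h control the 24 h APAP library had 16 genes counted as higher, and 7 of the 11 named above were among them, without Syvn1, Eif2ak3, Chac1 and Nupr1, beside 5.36% of all genes. Against the 24 h control the 48 h APAP library had 2 genes counted as higher, Chac1 and Nupr1, and none of the 3 named above, beside 606 of all 12113 genes. There Psat1 had a fold of 1.94 (1.08 to 3.65) and Asns of 1.47 (0.799 to 2.77). With both control pools summed, 11 genes were counted as higher at 24 h, 9 of them among the 11, and 4 at 48 h, namely Asns, Chac1, Psat1 and Nupr1, beside 4.52% and 4.35% of all genes.

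The wider pathway was described with further lists. Of 20 other ER folding enzymes, all past the filter, 1 was counted as higher at 24 h and none at 48 h, with a median log2 fold of 0.11 and -0.04. The 1 gene was Dnajc10, a disulfide reductase of the degradation pathway, with 67.1 and 144 normalized reads and a fold of 2.15 (1.59 to 2.94) at 24 h. None of 17 other genes of ER-associated degradation and none of 22 genes of the translocon and N-glycosylation was counted in either direction at either time. Their median log2 folds were 0.23 and 0.09 at 24 h, and -0.12 and -0.08 at 48 h.

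Of 28 other genes assigned to ATF4 and CHOP, 21 passed the filter, of which 4 were counted as higher and 2 as lower at 24 h, and 2 as higher at 48 h. The median log2 fold was 0.21 at 24 h and 0.15 at 48 h. Atf3, a transcription factor induced by many stresses, had 5.68 and 94.5 normalized reads at 24 h, a fold of 16.6 (6.92 to 52.2), and 9.65 and 22.5 at 48 h, a fold of 2.33 (1.05 to 5.70). Slc7a11, the cystine transporter that pairs with Slc3a2, had 2 and 16 reads at 24 h, a ratio of 5.99 (1.41 to 53.7), and 3 and 23 reads at 48 h, a ratio of 6.70 (2.03 to 34.9). Slc7a11 was among the genes that the study picked from these libraries for their folds, so its direction is not independent. Gdf15, a stress-induced hormone, had 9 and 38 reads at 24 h, a fold of 3.16 with an interval that left out 1. The remaining called genes, named after their values were seen, were Cebpb, with a fold of 2.06 (1.83 to 2.31) at 24 h, and Cth and Bbc3, which were lower at 24 h, at 0.471 (0.414 to 0.535) and 0.392 (0.223 to 0.673).

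Among 13 genes of tRNA charging and, with Xpot, tRNA export, 1 was counted as higher at 24 h and none at 48 h. It was Wars, for tryptophan, with 39.8 and 101 normalized reads and a fold of 2.55 (1.73 to 3.83). Their median log2 fold was -0.18 at 24 h and -0.02 at 48 h. None of 13 genes of the eIF2 kinases, eIF2 and eIF2B was counted. Among 12 other stress sensors and processing factors, with 11 past the filter, Mbtps2, a protease that releases ATF6, was counted as higher at 24 h, with 15 and 42 reads and a fold of 2.10 (1.14 to 4.07). Creb3l1, an ER-bound factor related to ATF6 and known for its role in collagen secretion, was counted as higher at 48 h, with 5 and 38 reads and a fold of 6.65 (2.61 to 21.6).

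**Figure D5:**
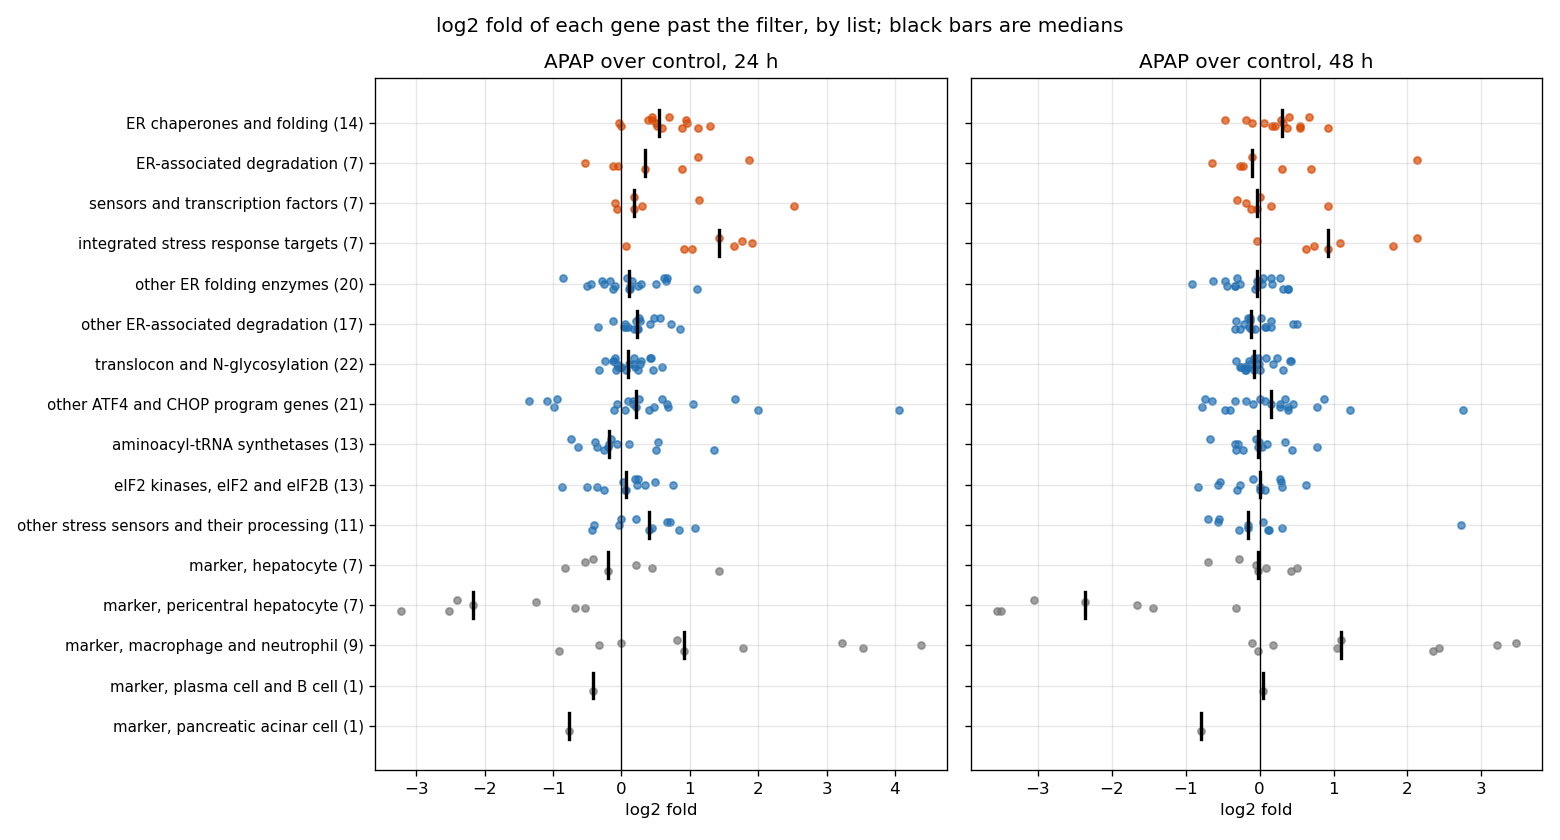
The log2 fold of APAP over control for each gene past the filter, by list, at 24 h (left) and 48 h (right), with the number of genes in brackets and black bars for medians. Orange marks the stress response genes, blue the wider pathway and grey the cell type markers. The targets of the integrated stress response have the highest median of the pathway lists at both times, and the pericentral markers the lowest of all lists, at -2.17 and -2.37.

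Markers of cell types moved with the APAP libraries as well. The tissue carried the hepatocyte markers, with summed normalized reads from 524126 to 582495 for the 7 of 8 listed genes in the table. Of 7 pericentral hepatocyte markers past the filter, 5 were counted as lower at 24 h and 6 at 48 h, and the sum over the list of 8 went from 15994 to 6774 at 24 h and from 17177 to 5120 at 48 h. Glul, glutamine synthetase, had 3463 and 371 normalized reads at 24 h, a fold of 0.107 (0.0968 to 0.119). Of 9 macrophage and neutrophil markers past the filter, 4 were counted as higher at 24 h and 5 at 48 h, and the sum over the list of 10 went from 714 to 1099 and from 738 to 1653. Their folds at 24 h ran from 0.534 to 20.8, with Clec4f, a marker of Kupffer cells named after its value was seen, lowest at 0.534 (0.441 to 0.645). The genes counted as higher included S100a8 and S100a9, which the study had also picked from these libraries. The part of these cell types in the folds of the stress response genes was not tested.

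Markers of secretory cells that hold much ER were also listed. Of 7 plasma cell and B cell markers in the table only Sdc1, which hepatocytes also express, passed the filter, and Jchain had at most 1 read in a library and Mzb1 at most 3. Of 9 pancreatic acinar markers only Cela1 passed the filter, and the other 8 were at 0 in at least 1 library. In the 48 h control Prss2 had 8 reads and Cela3b 10, while both had none in the other 3 libraries. Apart from Sdc1, Cela1 and Cd79b, the last with at most 7 reads, the markers of both cell types were at or near 0 in the 24 h control and the 24 h APAP library. The part of these cell types in the Derl3 reads was not tested.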

How the data were processed

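The authors treated RNA with DNase I, prepared 1 MACE 3′ library per pool, removed duplicate reads by their molecular identifiers, removed bases of low quality by cutadapt and poly(A) tails by a script, mapped to mm10 and obtained reads per gene from HTSeq; the mapper and the versions are not given in the sources used here. The deposited counts are whole reads per gene, not scaled by length. The table's 4 columns of normalized values and the authors' own comparisons by DESeq2 (log2 ratios and p-values) were not used.

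Size factors were the median of ratios (DESeq2 1.42.0, R 4.3.3). Folds and exact intervals were computed in Python 3.11.15 with scipy 1.17.1 and tested on simulated data. Counts of 3 or fewer were set to 3 for calls and medians, and ratios from them are given as counted; 3 reads were 0.526 to 0.617 RPM. GENCODE M21 (GRCm38, the assembly of mm10) matched 26964 of the 27027 entries and gave gene coordinates; promoter windows came from RefSeq (GRCm38.p6). Of the entries, 2430 name several features. Of these, 5 hold a stress response gene, namely the entry of Pdia4 itself, and 4 that name Hsp90b1, Manf or Eif2ak3 beside another gene; how such entries were formed is not given in the sources used here. Some entries (16) are antisense features, and whether counting used strand is not given in the sources used here. Transcript ends (300 bases, at least 95% identity over 100 bases, blastn 2.17.0) matched other genes for Phgdh and Dnajb9, and Gm6568, the match of Dnajb9, had at most 1.07 normalized reads.

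The genes and lists were chosen with earlier results of these data known. All 37 genes are described, and of each other list at most the 3 called genes with the largest absolute log2 fold at each time are named unless stated. Trf, Tnfrsf17 and Cela2a, from the marker lists, were not analysed here. Ero1l is in 2 lists. The alternatives were TMM (edgeR 4.0.16), library totals, no filter or a mean of at least 50 normalized reads, folds of 1.5 and 5, the fold without the interval, and the other or the summed control. Adding the shared entries and rescaling the ratio of folds were chosen after seeing the data.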

Additional observations from a re-analysis of the deposited data

Results flagged for a closer look

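For 7 of the stress response genes the APAP folds differed between the time points, either by at least 2-fold with an interval of the ratio that left out 1, or with intervals on opposite sides of 1. These intervals compare 4 libraries and cover counting error only, and with 35 genes compared some would leave out 1 by counting error alone. The share over all genes was not computed. The ratio of the 48 h fold to the 24 h fold was 0.287 for Ppp1r15a, 0.329 for Ddit3, 0.369 for Eif2ak3, 0.425 for Syvn1 and 3.36 for Asns. Pdia4, at 0.550, and Atf5, at 0.816, had intervals above 1 at 24 h and below 1 at 48 h. For the latter pair the control pools differed beyond counting error, with the 48 h control over the 24 h control at 1.28 (1.03 to 1.58) for Pdia4 and 0.754 (0.703 to 0.809) for Atf5. With the control of the other time point the folds of Pdia4 were 1.03 (0.857 to 1.23) at 24 h and 0.918 (0.737 to 1.14) at 48 h, and both intervals held 1. For Atf5 the same exchange of controls left the interval above 1 at 24 h and below 1 at 48 h. Both Atf5 folds then lay further from 1 than with the control of the same time point. The controls of Syvn1 differed too, at 1.64 (1.19 to 2.28). For Eif2ak3, at 2.04 (0.995 to 4.45), Asns, at 0.419 (0.158 to 1.01), Ddit3, at 0.763 (0.378 to 1.52), and Ppp1r15a, at 0.893 (0.442 to 1.80), the interval between the controls held 1.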

How the results depend on the processing

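No paired analysis was possible because each group had 1 library and the labels carry no replicate numbers, and for the same reason no replicate could be left out. TMM scaling gave 1 gene higher in the 48 h control (Eif2ak3). Library totals gave 7 genes higher at 48 h and a median log2 fold of 0.56 there. A mean of at least 50 normalized reads left 6 higher at 24 h and 1 at 48 h, beside 2.76% and 2.28% of all genes. Without the interval, 2 genes were higher and 4 lower in the 48 h control, beside 2.86% and 2.34%. A fold of 1.5 gave 18 higher at 24 h, 8 higher and 1 lower (Derl2) at 48 h, and 1 higher and 5 lower in the 48 h control, beside 9.75%, 8.71%, 10.9%, 3.95% and 3.65% of all genes. A fold of 5 left 1 higher at 24 h (Ddit3) and 0 at 48 h, beside 0.652% and 0.553%. The control of the other time point gave 1 gene lower at 48 h (Derl3), beside 4.28% of all genes. Its median log2 folds were 0.96 at 24 h and -0.02 at 48 h, and those of the summed controls were 0.75 and 0.12. Derl3 at 48 h reversed, to 0.355 with the other control and to 0.674 with the summed controls. Of the 70 folds of single genes, TMM left 70 within their counting interval, library totals 40, the other control 29 and the summed controls 54. The number of genes whose folds differed between time points went from 14 to 15 with TMM and with library totals. Genes under about 20 reads in a library, such as Chac1, Nupr1, Asns, Psat1, Trib3 and Eif2ak3, are limited by depth. The causes were not tested beyond what each alternative changes.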

Other observations

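The ER stress response element was found before or around the start of 28 genes outside the 37, of which 8 passed the filter on low counts. Of these, 2 were counted as higher and 2 as lower at 24 h, and 0 and 2 at 48 h, and their median log2 fold was 0.21 at 24 h and 0.09 at 48 h. Acacb, which makes malonyl-CoA at mitochondria and so limits fatty acid oxidation, had 687 and 107 normalized reads at 24 h and 793 and 83.4 at 48 h, in control and APAP, with folds of 0.156 (0.128 to 0.190) and 0.105 (0.0834 to 0.131). Acnat2 had 84.1 and 188 at 24 h, a fold of 2.24 (1.71 to 2.95). Pan2, a deadenylase subunit, had 6.82 and 31.5 at 24 h, a fold of 4.62 (1.93 to 13.4), but its 48 h control held 35.4. Ero1lb, an oxidase of disulfide formation in the ER, had folds of 0.915 (0.733 to 1.14) and 1.30 (0.990 to 1.71). These genes were chosen for naming after their values were seen.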
